A study of Homo sapiens with 6 samples.

Results

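The genes described here encode the 5 subunits of the transcription factor NF-kB (NFKB1, NFKB2, REL, RELA and RELB) and 5 regulators that the pathway itself induces (NFKBIA, NFKBIE, NFKBIZ, TNFAIP3 and BCL3). They are 10 of 18417 genes tested, each taken by its symbol from the platform's probe annotation, and each was read by 1 probe set. Expression was measured on 6 Affymetrix whole-transcript arrays in MDA-MB-231 cells, an established triple-negative line from human breast cancer. Treated cells (3 cultures) had 10 µM YW3-56 for 8 h and control cells (3 cultures) had the vehicle DMSO, for which the labels state no separate time. YW3-56 is known as an inhibitor of the peptidylarginine deiminases, enzymes that turn arginine in proteins into citrulline. All cultures were grown in serum and treated before full confluence, and the series holds this cell line, dose and time only. Values are the deposited log2 expression values after RMA, which corrects background and equalises intensities between arrays.

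NF-kB is a family of dimers. RELA, REL and RELB carry activation domains, whereas NFKB1 and NFKB2 encode the precursors p105 and p100, which are cut to the DNA-binding subunits p50 and p52. In resting cells the IkB proteins hold the dimers in the cytoplasm, and the IKK kinase complex marks IkB for destruction when a receptor is engaged. Freed dimers then switch on inflammatory and survival genes together with their own inhibitors, which closes a feedback loop. MDA-MB-231 is known as a line in which NF-kB is active without added stimulus.

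In cells treated with YW3-56 the members did not move as a block. NFKBIZ, the nuclear co-regulator IkB-zeta, was 1.95-fold higher and NFKB2 was 1.49-fold higher, while TNFAIP3, the ubiquitin-editing inhibitor A20, was 1.38-fold lower and BCL3, a nuclear IkB protein, was 1.37-fold lower. RELA, the main activating subunit, had a log2 fold change of -0.00 ± 0.07 (SE, n = 3 arrays per group). In limma's fit across all genes, 2 of 10 members rose, 2 fell and 6 did not pass at an adjusted p under 0.05. Across all tested genes 21.4% were called, 9.84% higher and 11.5% lower. The median log2 fold change was -0.17 over the members and -0.05 over all genes, and no set test was made.

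The arrays of DMSO differed among themselves in these genes, which bears on the values that follow. DMSO replicate 1 had the highest of the 3 DMSO values for 10 of 10 members, against 35.3% of all genes tested. It did so too for the members after each array was centred on its median and after a second quantile normalization. It had the lowest of the 3 DMSO values for 45.7% of all genes, so this array stood apart in genes at large and not only in the members. The members were not set against genes of like brightness. The median SD of a member was 0.06 in YW3-56 and 0.19 in DMSO, against 0.09 and 0.12 over all genes. Each member's result is also given without that array. The part that the array plays was not tested beyond that. Arrays of the same group correlated at 0.990 or more over genes, and arrays of different groups at 0.985 or less. Mesenchymal markers of the line (VIM, CD44, CAV1, AXL, LGALS1 and ANXA1) had mean values between percentiles 99.5 and 99.9 of all genes. Of the genes listed as low in this line, ESR1, PGR, ERBB3 and CDH1 lay at percentiles 22.4, 8.88, 22.6 and 14.1. GATA3 lay at 35.2, EPCAM at 39.1 and FOXA1 at 62.4. Probe sets respond unequally, so these percentiles are only a rough guide.

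**Figure D1:**
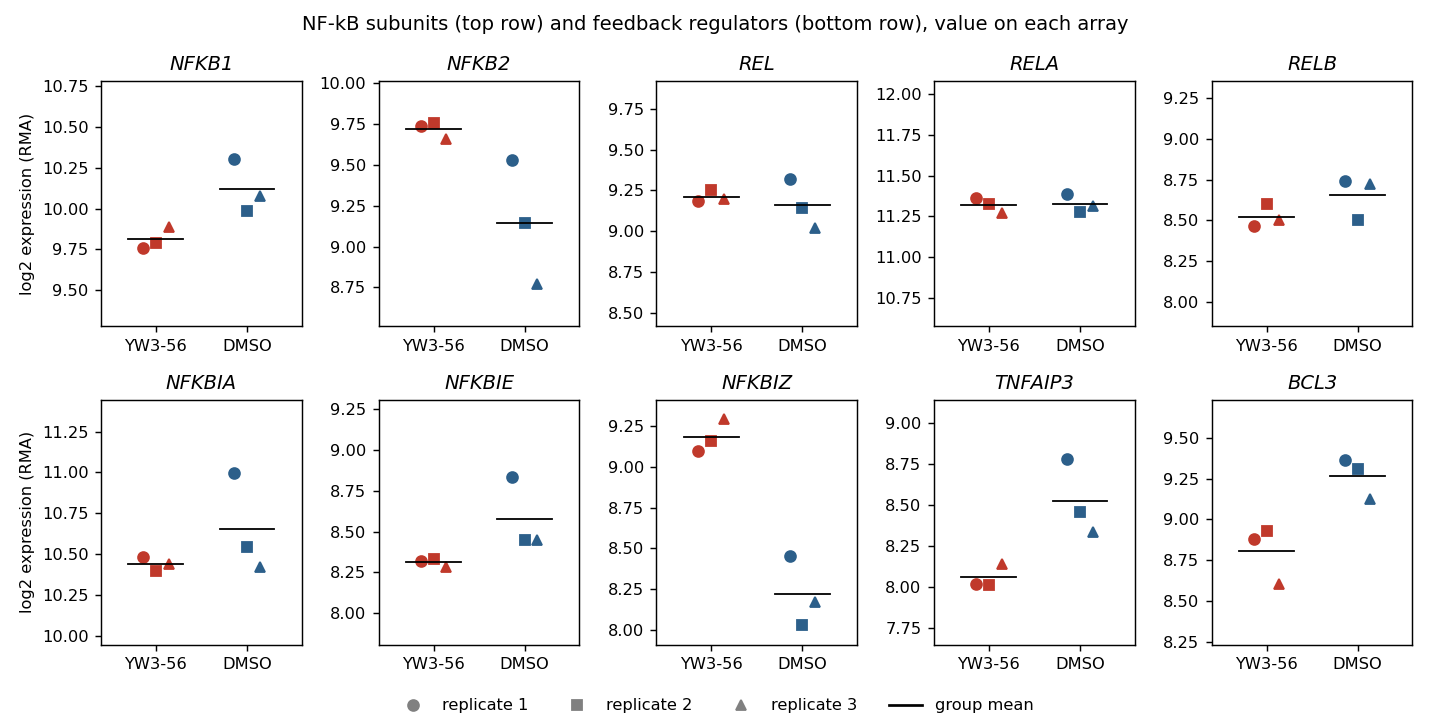
Deposited log2 expression (vertical axis, RMA) of each member on each array, with YW3-56 left of DMSO, marker shape for the replicate and a line for the group mean. Every panel spans 1.5 log2 units. The groups separate upward for NFKBIZ and NFKB2 and downward for NFKB1, NFKBIE, TNFAIP3 and BCL3, and DMSO replicate 1 is the highest DMSO point in every panel.

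Many of these genes are known NF-kB targets, so the DNA before their starts was searched for a 9-letter NF-kB pattern, GGAAANNCC, on both strands (the other strand reads GGNNTTTCC). The pattern was written after these sequences had been seen, so the shares below describe the members and are no test of enrichment. In the 250 bases before each annotated start (RefSeq, GRCh38.p14), 7 of 8 members with a sequence had at least 1 match in at least 1 window. The share over 27305 genes was 6.69%. Genes differ in their number of windows, and by window the match was found in 9 of 13 for the members and in 5.49% of all 35097. RELA had no match in its 2 windows. RELB and NFKBIE were not searched. TNFAIP3 and NFKBIA had 2 matches in a window, as did 0.286% of all genes. A match is a description of letters and not a measured binding site. The pattern does not cover every sequence that NF-kB is known to bind. For example, gggaattccc in the NFKB2 window stays in lower case, so lower case does not mean that a site is absent. A window with a match for each of the 4 members that passed the test, and that of NFKBIA as the best-known feedback gene, is printed 5′ to 3′ with the matches in capitals.
NFKBIZ chr3:101827740-101827989 (plus strand): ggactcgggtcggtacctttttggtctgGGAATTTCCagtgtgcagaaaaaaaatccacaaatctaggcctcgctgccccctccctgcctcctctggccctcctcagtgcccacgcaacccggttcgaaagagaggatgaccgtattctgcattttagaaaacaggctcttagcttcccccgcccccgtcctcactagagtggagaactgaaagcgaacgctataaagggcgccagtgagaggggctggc
NFKB2 chr10:102394328-102394577 (plus strand): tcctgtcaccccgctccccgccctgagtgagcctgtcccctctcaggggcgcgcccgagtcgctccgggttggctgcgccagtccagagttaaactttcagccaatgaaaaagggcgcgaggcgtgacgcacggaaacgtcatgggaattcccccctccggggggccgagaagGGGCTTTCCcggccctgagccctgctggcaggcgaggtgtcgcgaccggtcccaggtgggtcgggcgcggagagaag
TNFAIP3 chr6:137867009-137867258 (plus strand): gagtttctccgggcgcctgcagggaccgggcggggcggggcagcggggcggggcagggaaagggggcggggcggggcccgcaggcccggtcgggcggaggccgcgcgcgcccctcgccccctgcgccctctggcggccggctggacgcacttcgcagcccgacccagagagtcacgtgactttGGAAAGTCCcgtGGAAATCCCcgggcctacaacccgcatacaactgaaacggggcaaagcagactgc
BCL3 chr19:44748458-44748707 (plus strand): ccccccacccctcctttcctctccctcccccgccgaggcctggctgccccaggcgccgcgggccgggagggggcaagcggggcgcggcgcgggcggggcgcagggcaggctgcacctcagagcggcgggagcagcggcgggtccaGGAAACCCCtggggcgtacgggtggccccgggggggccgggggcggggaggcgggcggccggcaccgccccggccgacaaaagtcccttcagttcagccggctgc
NFKBIA chr14:35404750-35404999 (minus strand): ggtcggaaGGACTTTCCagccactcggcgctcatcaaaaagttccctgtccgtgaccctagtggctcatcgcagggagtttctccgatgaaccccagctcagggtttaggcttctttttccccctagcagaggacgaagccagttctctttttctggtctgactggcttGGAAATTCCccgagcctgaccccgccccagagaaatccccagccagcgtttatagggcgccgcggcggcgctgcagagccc
NFKBIZ had a match in both of its windows and NFKB2 in 2 of 3, and the first of these windows is shown. The match begins 222 bases before the start in NFKBIZ, 77 in NFKB2 and 105 in BCL3. The matches begin 67 and 55 bases before it in TNFAIP3, and 242 and 81 in NFKBIA. Genes with a match were found among those that were higher in YW3-56 (NFKBIZ, NFKB2), those that were lower (TNFAIP3, BCL3) and those that did not pass (NFKB1, REL, NFKBIA).

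Among the subunits only NFKB2 passed. NFKB2 makes p100, which both holds back RELB and yields p52 in the noncanonical branch of the pathway. Its values were 9.74, 9.76 and 9.66 in YW3-56, against 9.53, 9.14 and 8.77 in DMSO. The treated arrays lay close together and above every DMSO array, while the DMSO arrays spread over a wide range. The mean was 9.72 ± 0.05 in YW3-56 and 9.15 ± 0.38 in DMSO (SD, n = 3 each), a log2 fold change of 0.57 ± 0.17 (SE, 95% interval 0.19 to 0.96, limma adjusted p = 0.0444). The change was 0.76 without DMSO replicate 1 (adjusted p = 0.00152). The call ended when any other array was left out, with changes from 0.38 without DMSO replicate 3 (0.0705) to 0.60 without YW3-56 replicate 3 (0.108). The adjusted p was 0.115 without YW3-56 replicate 1, 0.122 without YW3-56 replicate 2 and 0.12 without DMSO replicate 2.

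NFKB1, the precursor of p50, had values of 9.76, 9.79 and 9.89 in YW3-56 and 10.30, 9.98 and 10.08 in DMSO. The groups did not overlap, which was true of 36.9% of all genes, 21.4% with YW3-56 below DMSO and 15.5% with YW3-56 above. The log2 fold change of NFKB1 was -0.31 ± 0.10 and missed the threshold (95% interval -0.53 to -0.09, limma adjusted p = 0.0567). It passed after a second quantile normalization (-0.28, adjusted p = 0.044), with dim genes left out (0.0402) and with a trended and robust prior (0.0246). It was -0.22 (0.0837) without DMSO replicate 1.

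The 3 Rel proteins with activation domains did not pass. RELA had values of 11.36, 11.32 and 11.27 in YW3-56, against 11.39, 11.27 and 11.31 in DMSO. These 6 values were interleaved, and the 95% interval of the log2 difference was -0.17 to 0.16. REL, which encodes c-Rel, had values of 9.19, 9.25 and 9.20 in YW3-56 and 9.32, 9.14 and 9.02 in DMSO (0.05 ± 0.09, interval -0.16 to 0.26, limma adjusted p = 0.773). RELB, the partner of p52, had values of 8.46, 8.60 and 8.50 in YW3-56 and 8.74, 8.50 and 8.72 in DMSO (-0.13 ± 0.09, interval -0.34 to 0.07, adjusted p = 0.38). Leaving out DMSO replicate 1 gave changes of 0.03 for RELA, 0.13 for REL and -0.09 for RELB.

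**Figure D2:**
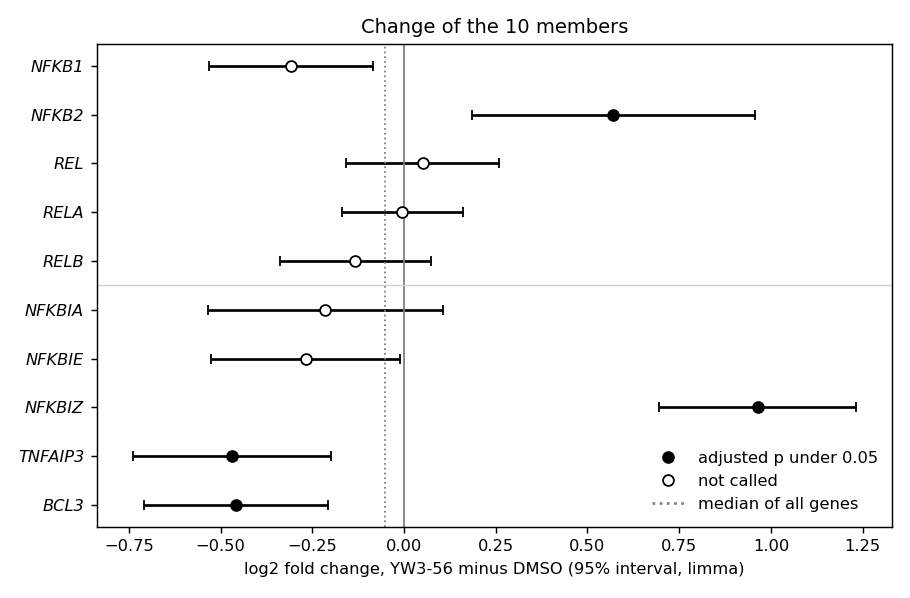
Log2 fold change (horizontal axis, YW3-56 minus DMSO) of each member with its 95% interval from limma, subunits above the grey rule and feedback regulators below. Filled points passed at an adjusted p under 0.05, and the dotted line is the median of all genes. NFKBIZ (0.96) and NFKB2 (0.57) lie right of 0, TNFAIP3 (-0.47) and BCL3 (-0.46) left of it, and RELA sits at 0.

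Of the feedback regulators, NFKBIZ showed the largest change of any member. NFKBIZ is an atypical IkB that works in the nucleus with p50 and is known to help switch on a second wave of genes such as IL6. Its values were 9.10, 9.16 and 9.29 in YW3-56, against 8.45, 8.03 and 8.17 in DMSO. Every treated array exceeded the highest DMSO array by at least 0.64 log2 units. The mean was 9.18 ± 0.10 in YW3-56 and 8.22 ± 0.22 in DMSO (SD, n = 3 each), a log2 fold change of 0.96 ± 0.12 (SE, 95% interval 0.70 to 1.23, limma adjusted p = 0.001). This was rank 292 of 18417 genes by absolute change. The call held under each of the 14 alternatives tried, with changes from 0.87 to 1.12, and it was 1.08 without DMSO replicate 1.

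TNFAIP3 and BCL3 fell. A20 takes ubiquitin chains off signalling proteins upstream of IKK, and its loss is known to prolong NF-kB activity. TNFAIP3 had values of 8.02, 8.01 and 8.14 in YW3-56, against 8.78, 8.46 and 8.34 in DMSO. All treated arrays lay below all DMSO arrays, and the nearest of them were 0.19 log2 units apart. The means were 8.06 ± 0.07 in YW3-56 and 8.53 ± 0.23 in DMSO, a log2 fold change of -0.47 ± 0.12 (interval -0.74 to -0.20, limma adjusted p = 0.0237). Without DMSO replicate 1 the change was -0.34 (adjusted p = 0.0194). The call ended without DMSO replicate 2 (0.058) and without YW3-56 replicates 1, 2 or 3 (0.0761, 0.0826 and 0.058).

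BCL3 binds p50 and p52 dimers in the nucleus and can turn them into activators. BCL3 had values of 8.88, 8.93 and 8.60 in YW3-56, against 9.36, 9.31 and 9.12 in DMSO. Here too the groups were apart, and replicate 3 was the lowest array in both. The means were 8.81 ± 0.18 in YW3-56 and 9.26 ± 0.13 in DMSO, a log2 fold change of -0.46 ± 0.11 (interval -0.71 to -0.21, limma adjusted p = 0.0189). Without DMSO replicate 1 it was -0.41 (0.0292), and the call ended without DMSO replicate 2 (0.0739) or YW3-56 replicate 3 (0.0693).

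The classical cytoplasmic inhibitors did not pass. NFKBIA, which encodes IkB-alpha and is the standard readout of the feedback loop, had values of 10.48, 10.40 and 10.44 in YW3-56, against 10.99, 10.55 and 10.42 in DMSO. The lowest DMSO value lay within the treated range, and DMSO replicate 1 stood well above the other arrays. The log2 fold change was -0.21 ± 0.14 (interval -0.53 to 0.11, limma adjusted p = 0.357), and without DMSO replicate 1 it was -0.04 (0.707). NFKBIE, which encodes IkB-epsilon, had values of 8.32, 8.33 and 8.28 in YW3-56, against 8.84, 8.45 and 8.45 in DMSO. Its groups did not overlap, yet the change of -0.27 ± 0.11 did not pass (interval -0.52 to -0.01, adjusted p = 0.141), and without DMSO replicate 1 it was -0.14 (0.198).

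Differences between a pair of members within an array do not depend on a shift shared by all genes of that array. A scaling that varies with intensity could still alter them. Their sign within a group mixes probe response with transcript level, so only the difference between groups can be read. For NFKBIZ minus NFKBIA this quantity was -1.38, -1.24 and -1.14 in YW3-56, against -2.54, -2.52 and -2.25 in DMSO. Every treated array lay above every DMSO array, by 1.18 log2 units between the means. For NFKB2 minus NFKB1 it was -0.02, -0.03 and -0.23 in YW3-56, against -0.77, -0.84 and -1.31 in DMSO, a difference of 0.88. The groups did not overlap for either pair, and both exact two-sided permutation p-values were 0.1, the smallest that 3 against 3 arrays allow, or 0.15 after adjustment over 3 pairs. For RELB minus RELA the values were -2.90, -2.72 and -2.77 in YW3-56, against -2.64, -2.77 and -2.59 in DMSO, and the groups overlapped (difference -0.13, exact permutation p = 0.3). The differences of NFKBIZ minus NFKBIA, NFKB2 minus NFKB1 and RELB minus RELA were 1.13, 0.98 and -0.11 without DMSO replicate 1.

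**Figure D3:**
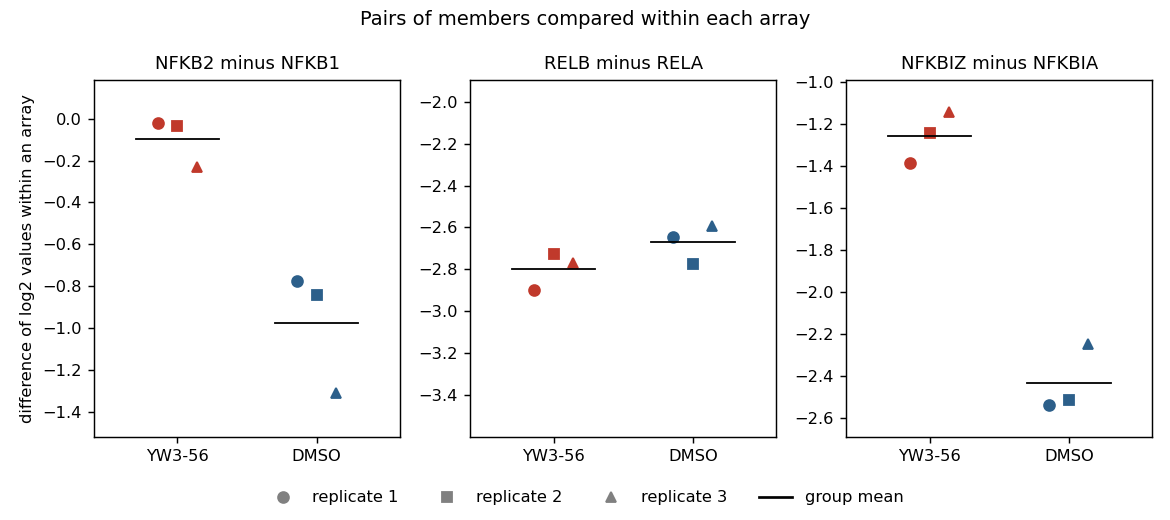
Difference of log2 values between a pair of members on the same array (vertical axis), with YW3-56 left of DMSO, marker shape for the replicate and a line for the group mean. NFKB2 minus NFKB1 and NFKBIZ minus NFKBIA separate the groups by 0.88 and 1.18, and RELB minus RELA does not separate them.

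The genes whose levels followed the leading members most closely were found by Pearson correlation over the 6 arrays, given as a description. GNPDA2 (r = 0.999), TMEM209 (0.998) and NAA16 (0.997) were nearest to NFKBIZ, and MAP3K2, ZNF782 and MDC1 (0.996 each) to NFKB2. The arrays fall into 2 groups, so any gene that differs between the groups scores highly. Correlations above 0.95 were found for 768 genes with NFKBIZ and for 141 with NFKB2.

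Other genes of the pathway were read from 5 lists, in the order in which a signal passes. Of 16 measured receptors that feed into NF-kB, 3 rose, 3 fell and 10 did not pass (median log2 fold change -0.03). That is 37.5% called, against 21.4% of all genes tested. F2R, the thrombin receptor PAR1, fell by 1.19 ± 0.13 on the log2 scale (limma adjusted p = 7.1e-04), and TNFRSF21, death receptor 6, fell by 1.07 ± 0.18 (0.00457). TLR6, which pairs with TLR2, rose by 0.86 ± 0.09 (5.9e-04), and IL17RA, a subunit of the interleukin 17 receptor, rose by 0.48 ± 0.10 (0.0118). TNFRSF11A (-0.31) and TLR1 (0.48) also passed, but the first call ended when any array was left out (adjusted p from 0.0525 to 0.145) and the second without YW3-56 replicates 2 or 3 or DMSO replicates 2 or 3 (0.0519 to 0.135). TNFRSF1A, the main TNF receptor, had a change of -0.03 ± 0.08. Centring of each array gave 4 rises and 2 falls, and without DMSO replicate 1 there were 5 rises and 2 falls. Over all genes the main fit gave 1812 rises and 2121 falls. The centred fit gave 1899 and 1742 over all genes, and the fit without DMSO replicate 1 gave 2084 and 2605.

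Of 24 measured genes of the IKK complex, its adaptors and upstream kinases, 2 rose, 4 fell and 18 did not pass (median -0.02). The share called was 25%, close to the 21.4% over all genes tested. RBCK1, the HOIL-1 subunit of the linear ubiquitin ligase, rose by 0.50 ± 0.07 (limma adjusted p = 0.00223). UBE2N, the conjugating enzyme for K63-linked chains, fell by 0.58 ± 0.12 (0.0107), CUL1, a scaffold of the ligase that degrades IkB, by 0.39 ± 0.08 (0.0081), and MYD88, the adaptor of Toll-like and interleukin 1 receptors, by 0.37 ± 0.09 (0.0218). TBK1 (0.31) and BIRC2 (-0.37) passed as well. TBK1 lost its call when any array but DMSO replicate 1 was left out (0.0785 to 0.123), and BIRC2 when any but DMSO replicate 2 was (0.0518 to 0.122). MYD88 lost its call without DMSO replicate 2 (0.0763) and without YW3-56 replicates 2 (0.084) or 3 (0.0982). The 3 core IKK genes did not pass, with log2 fold changes of -0.13 ± 0.08 for CHUK, -0.19 ± 0.08 for IKBKB and 0.11 ± 0.13 for IKBKG. MAP3K14, the kinase NIK of the noncanonical branch, was at 0.23 ± 0.20. The list gave 3 rises and 3 falls after centring of each array and also without DMSO replicate 1, and 3 calls in all without YW3-56 replicate 2 or 3. Over all genes the calls were 3641 after centring and 4689 without DMSO replicate 1, against 3933 in the main fit. They were 2657 without YW3-56 replicate 2 and 2364 without YW3-56 replicate 3.

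The list of IkB relatives and IkB-binding proteins had 5 measured genes, of which 1 rose and 4 did not pass (median -0.10). With 20% called, it was near the 21.4% over all genes tested. NKIRAS2, a Ras-like protein that binds IkB-beta, rose by 0.44 ± 0.08 (limma adjusted p = 0.00695). NFKBIB, the gene of IkB-beta, had a log2 fold change of -0.06 ± 0.08, NFKBID -0.10 ± 0.10, NKIRAS1 -0.24 ± 0.11 and IKBIP -0.26 ± 0.11. IKBIP was counted in this list although it is not an IkB relative and is named for binding the kinase encoded by IKBKB. With replicate number as a block NKIRAS1 passed too (adjusted p = 0.0458), and without DMSO replicate 3 IKBIP did (-0.38, 0.02).

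Other negative regulators gave 5 rises, 1 fall and 12 that did not pass among 18 measured genes (median 0.12). Rises made up 27.8% and falls 5.56%, against 9.84% and 11.5% of all genes tested. SQSTM1, the autophagy receptor p62 that also scaffolds signalling proteins of the pathway, rose by 0.94 ± 0.10 (limma adjusted p = 5.4e-04). It was counted in this list although its scaffold role can also promote signalling. The deubiquitinase OTUD7B, known as Cezanne, rose by 0.71 ± 0.08 (6.4e-04), and N4BP1, an inhibitor of NF-kB signalling, by 0.48 ± 0.07 (0.00261). OTULIN, which cleaves linear chains, rose by 0.44 ± 0.10 (0.018), a call that ended without YW3-56 replicates 1 or 3 or DMSO replicates 2 or 3 (0.0526 to 0.0759). TNIP3, an A20-binding protein, rose by 0.33 ± 0.10 (0.0445), and its call ended without YW3-56 replicates 1 or 2 or DMSO replicates 1 or 2 (0.0599 to 0.156) with replicate number as a block (0.0595) and with a trended and robust prior (0.0579). IRAK3, an inactive relative of the IRAK kinases, fell by 0.87 ± 0.21 (0.0182), a call that ended without YW3-56 replicate 2 (0.0673) or 3 (0.0752). CYLD (0.31 ± 0.13) and TNIP1 (-0.13 ± 0.09) did not pass. Leaving out DMSO replicate 1 gave 6 rises and 2 falls. Over all genes it gave 2084 rises and 2605 falls, against 1812 and 2121 with all 6 arrays.

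Among 42 measured target genes of NF-kB, 14 fell, or 33.3%, 4 rose, or 9.52%, and 24 did not pass. The median log2 fold change was -0.13, against -0.05 over all genes. Of all genes 11.5% fell and 9.84% rose. The list was written with earlier results on several of these genes known, so its counts are not independent evidence. The largest changes were in PTX3, a secreted pattern recognition protein, at -1.69 ± 0.15 (log2, SE, limma adjusted p = 2.9e-04), and in F3, the tissue factor, at -1.66 ± 0.18 (6.4e-04). IER3, an immediate early survival gene, followed at -1.46 ± 0.18 (0.00118) and the cytokine IL11 at -1.30 ± 0.24 (0.00637). Other secreted factors that fell were PLAU (-1.23), CSF3 (-1.01), LIF (-0.85), IL1A (-0.54), CXCL1 (-0.54), CXCL8 (-0.46) and IL1B (-0.39, at percentile 11.7 of mean signal). The list holds many secreted factors, and others did not pass, among them CXCL2 (-0.06), CXCL3 (-0.13), CCL2 (-0.02), CCL5 (-0.14) and TNF (-0.16). The remaining falls were BCL2L1 (-0.47), TNFAIP2 (-0.47) and CD83 (-0.30). PTGS2, the inducible cyclooxygenase (1.01 ± 0.09), GADD45B (0.82 ± 0.13), RND1 (0.57 ± 0.13) and CFLAR, the caspase 8 inhibitor c-FLIP (0.32 ± 0.07), rose. When an array was left out, the calls of CXCL8, IL1A, IL1B, CD83, RND1 and CFLAR each ended in at least 1 such fit (adjusted p from 0.0512 to 0.0993 in those fits), and the other 12 calls held in all 6. IL6 had a change of 0.51 ± 0.21 that did not pass (adjusted p = 0.145), with a mean of 7.42 ± 0.15 in YW3-56 and 6.91 ± 0.48 in DMSO. Genes listed here beyond PTX3, F3, IER3 and IL11 were named after their values were seen. The counts were 15 falls and 5 rises without DMSO replicate 1. Over all genes that fit gave 2605 falls and 2084 rises, against 2121 and 1812 with all 6 arrays.

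**Figure D4:**
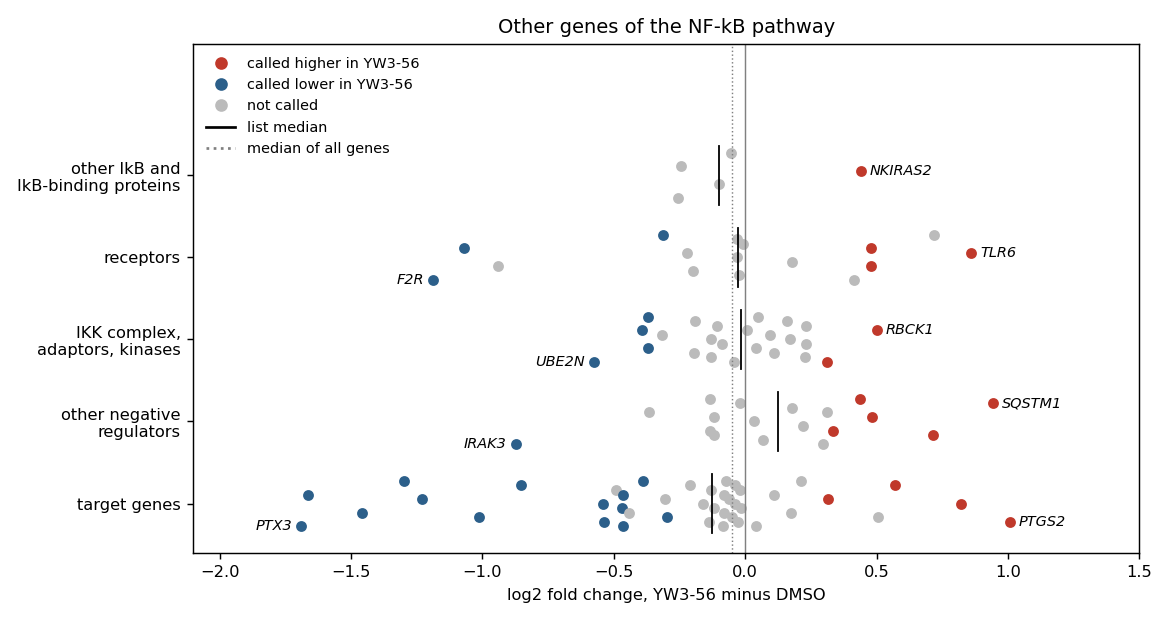
Log2 fold change (horizontal axis, YW3-56 minus DMSO) of every measured gene in the 5 pathway lists, 1 point a gene, coloured by the call, with a black line for the list median and a dotted line for the median of all genes. Vertical offsets within a list carry no value. Target genes reach furthest to the left, with 14 called lower and 4 called higher.

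DMSO replicate 1 was also the highest DMSO array for much of the wider pathway. It held the highest DMSO value for 68.8% of the receptors, 70.8% of the IKK list, 72.2% of the other negative regulators, 60% of the IkB relatives and 59.5% of the target genes, against 35.3% of all genes tested. The same array held the lowest DMSO value for 45.7% of all genes.

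**Figure D5:**
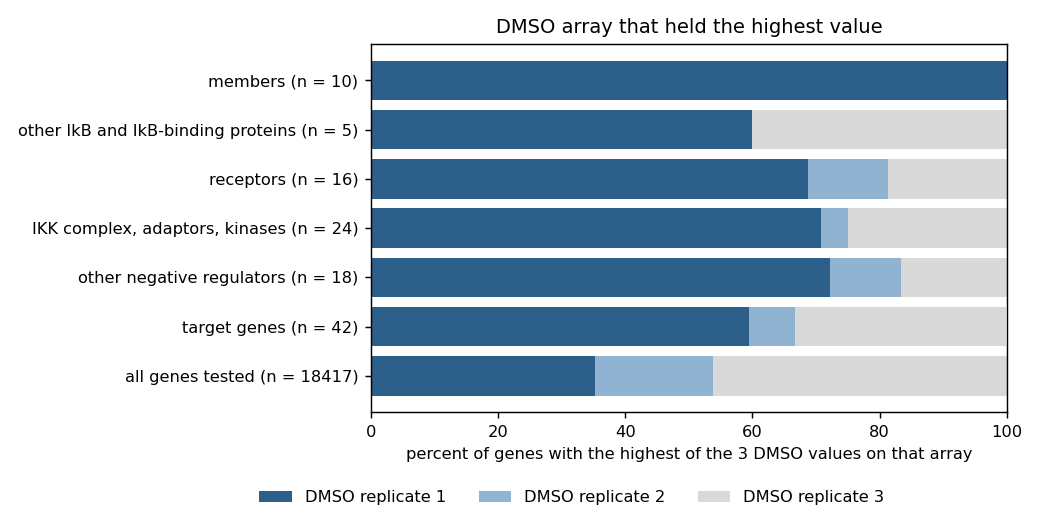
Share of genes (horizontal axis, percent) whose highest DMSO value was on each of the 3 DMSO arrays, for the members, the 5 pathway lists and all genes. DMSO replicate 1 holds the highest value for all 10 members and for 35.3% of all genes.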

How the data were processed

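The authors deposited log2 expression values for 33297 probe sets on 6 arrays, made with RMA and the affy package per the submitters' processing notes. No version of either tool was given. RMA would hide a change common to all transcripts. An array has no read depth, and precision is limited by how many arrays there were.

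Probe sets with a single symbol in the platform annotation, which can be old, were used (19460, with 1754 of several and 12083 of no symbol left out), and the brightest by mean of 6 arrays stood for a gene. The groups were compared in limma 3.58.1 under R 4.3.3 (lmFit and eBayes, two-sided, no dim filter), with Benjamini-Hochberg adjustment over 18417 genes. The fit was also run on simulated data, only to check that planted changes were recovered. Noise there was independent for each gene and array, so the simulation cannot show how a deviating array affects the calls. Intervals are 95% and unadjusted.

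The members, lists and tests were chosen with earlier results of these data known. All members were named, with up to 4 genes of each of 5 lists by largest change, called genes first, and the 3 nearest patterns to the 2 most changed members. Further genes are named with their values already known.

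The labels call replicates biological. No label says that the numbers pair cultures. Deviations from group means correlated at 0.54, 0.37 and 0.10 between arrays numbered 1, 2 and 3. A fit blocked on replicate number was therefore run as an alternative. The main fit and the permutation p-values are unpaired. YW3-56 replicate 2 correlated at 0.42 with DMSO replicate 3, more than with DMSO replicate 2, so whether the numbers mark pairs is not settled. Other alternatives were 2 scalings, a dim filter, the mean of probe sets, all probe sets, another prior, array weights and leaving out each array.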

Additional observations from a re-analysis of the deposited data

How the results depend on the processing

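NFKBIZ kept its direction and its call under each of the 14 alternatives. Leaving out 1 array gave between 1 and 4 members called, between 25 and 42 genes called over the 5 pathway lists, between 3 and 6 in the IKK list, between 1 and 2 among the IkB relatives and between 2364 and 4689 over all genes. The lowest count over all genes came without YW3-56 replicate 3, and the fits without YW3-56 replicate 3 or DMSO replicate 2 called NFKBIZ alone of the members. Array weights raised the count over all genes to 6079, that of receptors to 10, that of other negative regulators to 10 and that of the IkB relatives to 2. They gave DMSO replicate 1 a weight of 0.331 and DMSO replicate 2 a weight of 2.943. With replicate number as a block the same 4 members were called, 48 genes over the lists instead of 37, and 2 of the IkB relatives instead of 1. Calls over all genes rose with the block too, from 3933 to 4776. Of the called or rule-named genes, NKIRAS1 gained a call with the block (adjusted p = 0.0458) and TNIP3 lost its call (0.0595); the block changed no other. The sign of RELA, close to 0 in each fit, turned after centring of arrays (0.0222), after a second quantile normalization (0.0203) and with array weights (0.016), and it ran from -0.0301 to 0.0258 when an array was left out. That of REL ran from -0.0198 without DMSO replicate 3 to 0.1309 without DMSO replicate 1. Neither was called in any fit. Centring of arrays ended the calls of BIRC2 (0.0691), TNFRSF11A (0.0861) and CD83 (0.0662). A second quantile normalization ended those of TNFRSF11A (0.0619), IL1A (0.0669) and CD83 (0.0759). A trended and robust prior ended those of TNIP3 (0.0579) and CD83 (0.0579), array weights that of BIRC2 (0.052) and averaging probe sets per gene that of CFLAR (0.0868). TLR1, TNIP3, IRAK3 and IL1B fell under the filter on dim genes and gave no value there. Fits without an array rest on fewer samples; for other shifts the cause was not tested. Signals below background cannot be told from the deposited values, since no detection call was used here. The change of NFKB1 lay close to the threshold with 3 arrays per group.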
